A study of Mus musculus with 8 samples.

Results

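Naive CD3 T cells kept in culture for 24 h were compared with naive CD3 T cells that are counted here as 0 h, because their label gives the time only as control. The comparison takes 2 of the 8 arrays of the study, 1 array a side: the array labelled CD3 T cells, naïve (NT) at 24 h and the array labelled CD3 T cells, naive (NT). CD3 T cells of C57BL/6J mice were purified from spleen and lymph node by negative selection, so that the T cells were not touched by antibody, and no stimulus was added to either of these groups. The study's methods give mice of 8 weeks as the general case, and the sources used here do not say whether the arrays held pooled animals. The other 6 arrays held cells exposed for 3 h to concanavalin A (ConA, a plant lectin that binds mannose-rich sugars and activates T cells), to a poly-L-lysine surface (PLL, positively charged, so that cells stick to it), or to both together, and were taken at 3 h or after further culture to 24 h.

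Levels are log2 expression values on Affymetrix Mouse Gene 2.0 ST arrays, and a difference is the naive 24 h level minus the naive 0 h level, so that 1 unit is 2-fold. With 1 array a side no difference has a replicate check, no p-value was computed, and genes are described by size only. Time in culture, handling and the array itself change together between these 2 arrays and cannot be told apart. Whether the cells of these 2 arrays were taken at the same hour of the day is unknown. The array medians over all probe sets were close, from 3.53 to 3.69 over the 8 arrays. As a yardstick, the naive 24 h and PLL 24 h arrays differed by a robust SD of 0.194 over genes (a spread that few outlying genes do not move). Against PLL 24 h, 8 genes were higher and 13 lower by 2-fold or more on the naive 24 h array. The robust SD between naive 24 h and naive 0 h was 0.358. The value of 0.194 was the smallest of any array pair. Between naive 0 h and the ConA 3 h, PLL 3 h and ConA+PLL 3 h arrays the robust SD was 0.253, 0.282 and 0.325. A level of 4.10, the 95th percentile of the highest levels of 1394 olfactory and vomeronasal receptor genes, which T cells are not known to use, served as the background level.

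A resting T cell lives on survival signals from interleukin 7 and from weak contacts of its receptor with self peptides, and holds the transcription of cytokine and cell cycle genes low. When the T cell receptor is engaged, immediate early genes such as the AP-1 and Nr4a transcription factors are switched on within minutes to hours and then switched off again by feedback regulators, many of which are themselves induced. Removal from the tissue, cell purification and plating are known to induce immediate early and heat shock genes in many cell types.

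The labelled cell type was checked first. All 11 measured T cell markers lay above the background level on both arrays, with a median of 9.12 on the naive 24 h array and 8.58 on the naive 0 h array. Of 13 measured B cell markers 2 reached the background level on each array, and the summed linear level of that list was 1416 at 24 h and 751 at 0 h. Most of that sum was Ighm, the heavy chain of IgM, at 10.31 and 9.29 (a difference of 1.02, or 0.14 as the mean of its probe sets), while the monocyte and macrophage list summed to 235 at 24 h and 228 at 0 h, with 3 and 4 of 17 measured markers above background. Of 13 neutrophil markers 1 did so on each array. Of 9 platelet markers 5 reached background on each array, and of 15 dendritic cell markers 6 did at 24 h and 5 at 0 h. Of 5 erythroid markers 1 did on each array, and of 15 stromal and endothelial markers 2 did at 24 h and 3 at 0 h. Of 14 NK cell markers 5 did at 24 h and 7 at 0 h. The summed linear level of the NK cell list went the other way, at 1070 at 24 h and 766 at 0 h. Most of that sum was Klrd1, at 9.51 at 24 h and 8.71 at 0 h (0.80, or -0.032 against the PLL 3 h array). The median difference over the filtered NK cell markers was -0.28. A change in the number of cells of a type and a change in RNA per cell cannot be told apart in such bulk samples.

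Over 13428 filtered genes, 236 were at least 2-fold higher at 24 h (1.76%) and 203 at least 2-fold lower (1.51%). These shares are the ones to set beside every count of list members given below. With each array centred on its median over these genes the split was 166 higher and 268 lower, and after quantile normalization 295 higher and 184 lower, so the balance between the directions depends on the scaling. The median difference over all of these genes was 0.04, and its 5th and 95th percentiles were -0.63 and 0.75. The lower side reached further: 20 genes were at least 4-fold lower against 5 at least 4-fold higher, and 6 were at least 8-fold lower against 0 at least 8-fold higher. Both levels reached the background level for 180 of the higher and 156 of the lower genes. Predicted genes, clone names, small RNAs and receptor segments made up 38 of the higher and 21 of the lower genes and are not described one by one.

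**Figure D1:**
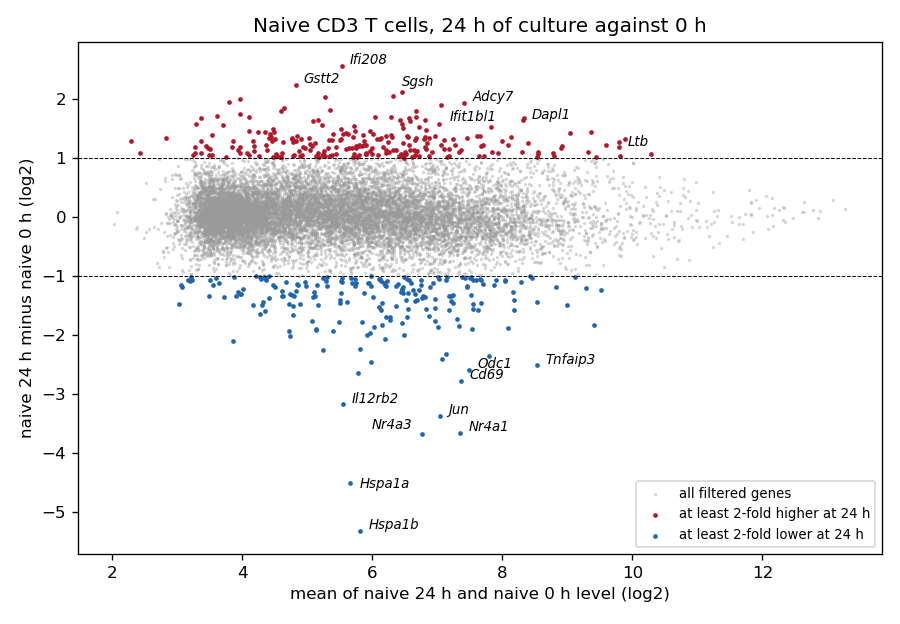
Difference of each of the 13428 filtered genes (naive 24 h minus naive 0 h, log2, vertical) against the mean of both levels (log2, horizontal). Red points are the 236 genes at least 2-fold higher and blue points the 203 genes at least 2-fold lower, dashed lines mark 2-fold, and Hspa1b and Hspa1a stand lowest at -5.32 and -4.51.

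The inducible heat shock protein 70 genes Hspa1b and Hspa1a, which encode a chaperone that refolds damaged proteins, had the largest differences of all. Hspa1b had a level of 3.15 on the naive 24 h array and 8.47 on the naive 0 h array, a difference of -5.32, or -4.37 when the 24 h level, which lies under background, is set to the background level. Hspa1a had 3.41 at 24 h and 7.91 at 0 h, a difference of -4.51, or -3.81 with the same bound. The other arrays did not follow time alone. Hspa1b stood at 2.93 on the PLL 24 h array and 3.35 on the PLL 3 h array, at 3.20 on the ConA 24 h array and 8.08 on the ConA 3 h array, and at 3.07 on the ConA+PLL 24 h array and 6.95 on the ConA+PLL 3 h array. The gene was therefore under background on all 4 arrays of 24 h and on the PLL 3 h array, and high on the other 3. Hspa1a stood at 3.15 on the PLL 3 h array, and with the PLL 3 h array in place of naive 0 h the difference of Hspa1a was 0.26. The coding sequences of this gene pair are near identical, and whether their probe sets separate them was not tested.

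Promoter sequences are shown for the lower genes because those of the heat shock pair carry a known response element, the binding unit of heat shock factor. They come from the RefSeq table for GRCm38.p6, span 300 bases around the annotated start of the gene, mostly before it, and are written 5′ to 3′ on the strand of the gene, with the heat shock element unit GAANNTTC in capitals. The Hspa1b window lies at chr17:34959189-34959488 and the Hspa1a window at chr17:34972107-34972406, both on the minus strand, and 296 of their 300 bases are the same (98.7%). The same unit stands once in the window of Jun at chr4:95052173-95052472, minus strand, and once in that of Fosl2 at chr5:32136222-32136521, plus strand. It also stands once in the window of Ifi208, the gene with the largest rise.
Hspa1b: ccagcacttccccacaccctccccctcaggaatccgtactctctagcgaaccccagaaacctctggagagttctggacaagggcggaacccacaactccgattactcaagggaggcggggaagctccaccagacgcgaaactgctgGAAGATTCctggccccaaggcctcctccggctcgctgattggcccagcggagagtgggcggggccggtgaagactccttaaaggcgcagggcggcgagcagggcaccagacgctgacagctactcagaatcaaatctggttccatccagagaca
Hspa1a: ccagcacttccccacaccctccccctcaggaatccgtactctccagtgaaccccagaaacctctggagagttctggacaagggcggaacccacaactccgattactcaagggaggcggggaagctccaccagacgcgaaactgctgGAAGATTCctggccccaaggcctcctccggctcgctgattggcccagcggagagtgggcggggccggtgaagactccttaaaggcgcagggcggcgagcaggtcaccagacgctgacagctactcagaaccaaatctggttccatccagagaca
Jun: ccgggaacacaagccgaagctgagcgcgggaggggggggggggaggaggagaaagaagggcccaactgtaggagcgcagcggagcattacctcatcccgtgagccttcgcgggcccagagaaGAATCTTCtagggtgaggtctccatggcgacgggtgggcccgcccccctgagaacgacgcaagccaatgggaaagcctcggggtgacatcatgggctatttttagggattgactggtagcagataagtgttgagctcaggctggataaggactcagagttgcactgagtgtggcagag
Fosl2: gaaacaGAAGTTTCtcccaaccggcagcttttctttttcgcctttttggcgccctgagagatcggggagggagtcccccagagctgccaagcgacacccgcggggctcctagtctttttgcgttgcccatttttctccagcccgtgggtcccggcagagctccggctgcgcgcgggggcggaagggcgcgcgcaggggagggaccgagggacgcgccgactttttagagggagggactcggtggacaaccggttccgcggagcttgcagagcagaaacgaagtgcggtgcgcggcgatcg

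The unit was found in 606 of the 10448 filtered genes with a promoter in the table (5.8%) and in 8 of 20 such genes of the heat shock and chaperone list (40%), searched on both strands. It occurred in 11 of 148 windows of the 2-fold lower genes (7.43%) and in 5 of 172 of the 2-fold higher genes (2.91%). Of the other lower genes searched, Nr4a3, Nr4a1, Nr4a2 and Gadd45b held no match to this unit, to TGACGTCA (the cyclic AMP response element), to TGANTCA (the AP-1 site), to the CArG box of serum response factor or to TTATGNAA (the D-box). TGACGTCA occurred in 9 of 148 windows of the 2-fold lower genes (6.08%), in 0 of 172 windows of the 2-fold higher genes and in 3.08% of all windows. TGANTCA occurred in 9.46% of the windows of the lower genes, 4.65% of those of the higher genes and 5.31% of all windows. The CArG box went the other way, with 0.676%, 3.49% and 1.32%, and the D-box had 2.03%, 2.91% and 2.02%. Of 23 windows of the early activation list, 0 held TGANTCA, 0 the CArG box, 2 TGACGTCA and 3 the heat shock unit. A match is a description of the letters only.

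In the heat shock and chaperone list as a whole, the Hspa1 pair included, 5 of 22 members were lower by 2-fold or more and 0 higher, with a median difference of -0.53 against 0.04 over all genes. Besides that pair these were Hsp90aa1, the inducible form of cytosolic Hsp90 (6.01 at 24 h and 7.24 at 0 h, -1.23), Hspa4l, an Hsp110 family member (-1.12), and Hspa5, the endoplasmic reticulum chaperone BiP (-1.02). The mitochondrial chaperonin pair Hspe1 and Hspd1 had differences of -0.88 and -0.67. Hspa8, the constitutive Hsp70, had 9.88 at 24 h and 10.23 at 0 h, and Fkbp4, a cochaperone of steroid receptors, was the 1 member above 0, at 0.10.

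The early activation list was the most shifted of the lists, with a median difference of -1.34, or -0.69 with the PLL 3 h array in place of naive 0 h. Of its 29 members 17 were lower by 2-fold or more and 0 higher, against 1.51% and 1.76% of all genes. The Nr4a orphan nuclear receptors, which are switched on by T cell receptor signals, led it. Nr4a1 had 5.52 at 24 h and 9.18 at 0 h (-3.65), Nr4a3 had 4.93 at 24 h and 8.61 at 0 h (-3.68), and Nr4a2 had 4.75 at 24 h and 7.22 at 0 h (-2.46). Nr4a1 was also at 5.25 on the PLL 24 h array against 8.71 on the PLL 3 h array and at 5.48 on the ConA 24 h array against 10.84 on the ConA 3 h array. All 4 arrays of 24 h were thus below all arrays of 0 h and 3 h for this gene.

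The AP-1 members, which pair as dimers on TGANTCA sites, moved the same way in unequal amounts. Jun had 5.35 at 24 h and 8.73 at 0 h (-3.37), Fosl2 5.97 and 8.30 (-2.33), Fosb 3.73 and 5.74 (-2.01) and Fos 3.98 and 5.46 (-1.48). The 24 h levels of Fosb and Fos lie under background, and with that level set to background their differences were -1.65 and -1.36. Junb differed by -1.15 and Jund by -0.40. Jun was lower on the PLL 3 h array (6.72) than on the naive 0 h array, whereas Fosb on the PLL 3 h array was 5.65. Cd69, a surface lectin that holds activated T cells in lymphoid tissue, had 5.98 at 24 h and 8.75 at 0 h (-2.78), and Irf4, a transcription factor graded by receptor signal strength, had 4.69 and 6.94 (-2.25). Gadd45b, a stress-induced activator of p38 signalling, had 5.87 at 24 h and 8.28 at 0 h (-2.41).

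Not all early genes fell. Egr1 and Egr2, zinc finger factors induced by the ERK pathway, differed by -0.28 and -0.32, although Egr3 differed by -1.34 with a 24 h level of 3.95, under background. Myc, which drives growth and metabolism of activated T cells, had 6.78 at 24 h and 7.15 at 0 h (-0.37). In the ConA arrays the same subtraction, 24 h minus 3 h, gave -3.45 for Egr1 and -1.57 for Myc. Ier3, an early response gene, was the member furthest above 0, at 0.46.

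**Figure D2:**
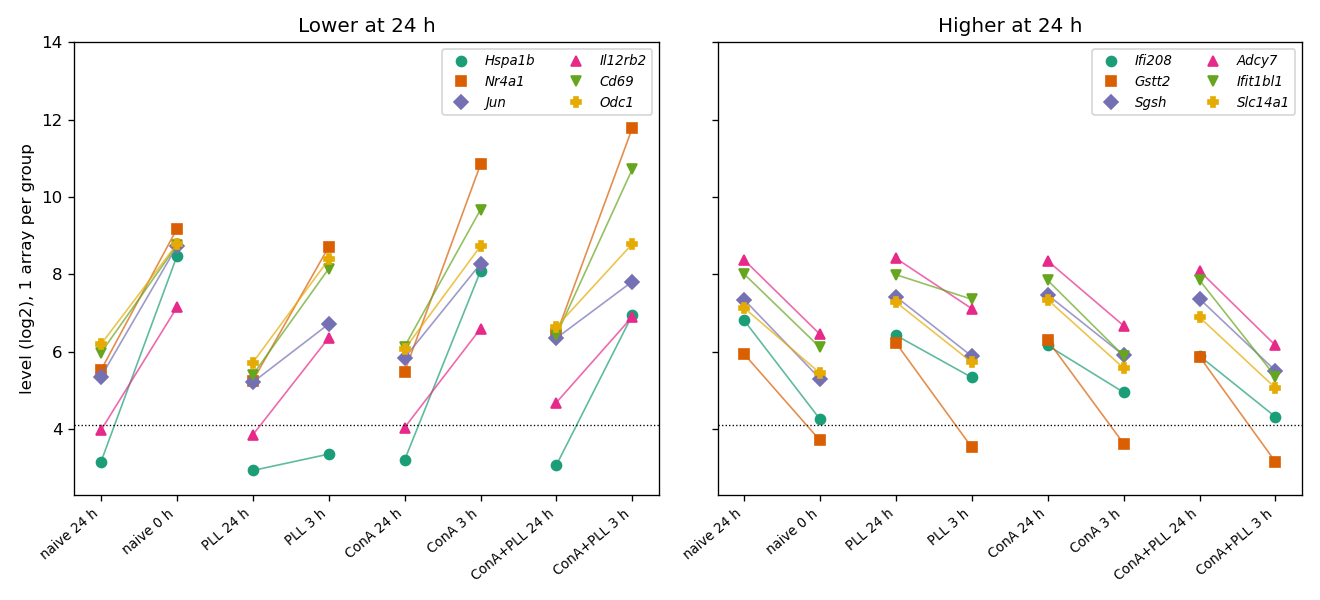
Levels (log2, vertical) of 6 genes that were lower and 6 that were higher at 24 h, on each of the 8 arrays (horizontal, the 24 h array left of its 0 h or 3 h partner, joined by a line). The dotted line is the background level of 4.10, and Hspa1b (circles, left panel) is low on the PLL 3 h array while the other 5 lower genes are not.

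Feedback inhibitors of receptor signalling were also lower, and 7 of the 24 members passed 2-fold on that side, 0 on the other, around a median of -0.75, which was -0.20 with the PLL 3 h array in place of naive 0 h. Tnfaip3, a ubiquitin-editing enzyme that restrains NF-kB, had 7.28 at 24 h and 9.80 at 0 h (-2.52). The MAP kinase phosphatases Dusp10, Dusp5 and Dusp1 differed by -1.90, -1.74 and -1.47, and Cblb, a ubiquitin ligase that raises the threshold of T cell activation, by -1.21. Socs1, an inhibitor of cytokine receptor kinases, went the other way at 0.82. In the NF-kB list 5 of 20 members were lower by 2-fold or more and 0 higher, among them the subunits Nfkb2 (5.56 at 24 h and 7.36 at 0 h, -1.80), Rel (-1.44) and Relb (-1.14). The upstream kinases Ikbke and Ikbkb stood above 0, at 0.96 and 0.73.

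Among other genes with the largest falls, Il12rb2, the signalling chain of the interleukin 12 receptor, had 3.97 on the naive 24 h array and 7.14 on the naive 0 h array (-3.17, or -3.05 with the 24 h level, under background, set to background). It had 3.85 on the PLL 24 h array and 6.36 on the PLL 3 h array, and 4.04 on the ConA 24 h array and 6.60 on the ConA 3 h array, so its level separated the times in each pair. Odc1, the rate-limiting enzyme of polyamine synthesis, had 6.19 at 24 h and 8.78 at 0 h (-2.59), with -2.67 for PLL and -2.66 for ConA between 24 h and 3 h. Ramp3, a partner of calcitonin family receptors, differed by -2.65 and Neto2, a transmembrane protein, by -2.26. Morf4l2, a subunit of chromatin acetylation complexes, differed by -2.36, or -1.86 as the mean of its 2 probe sets.

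Cytokine receptor genes moved in both directions. Il2rb, the beta chain shared by the interleukin 2 and interleukin 15 receptors, had 7.53 at 24 h and 8.80 at 0 h (-1.28), and Il2ra, the alpha chain that marks regulatory and activated T cells, had 5.49 and 6.28 (-0.78). Stat5a, the transcription factor downstream of these receptors, had 5.68 at 24 h and 7.38 at 0 h (-1.70), its relative Stat5b differed by -0.96, and Cish, a target gene of STAT5, had 3.33 at 24 h, under background, and 4.65 at 0 h (-1.31, or -0.46 as the mean of its probe sets). Il10ra, the ligand-binding chain of the interleukin 10 receptor, had 6.33 at 24 h and 4.92 at 0 h (1.41). Il6ra, Il27ra and Il7r, the receptor chains for interleukins 6, 27 and 7, differed by 0.94, 0.87 and 0.58. Over the 27 filtered members of the cytokine receptor list the median was -0.13. In it 1 member was 2-fold higher (Il10ra) and 2 were that much lower (Stat5a and Il2rb), so the list as a whole did not move one way. Cish, at -1.31, and Il12rb2, at -3.17, are not members of that list.

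**Figure D3:**
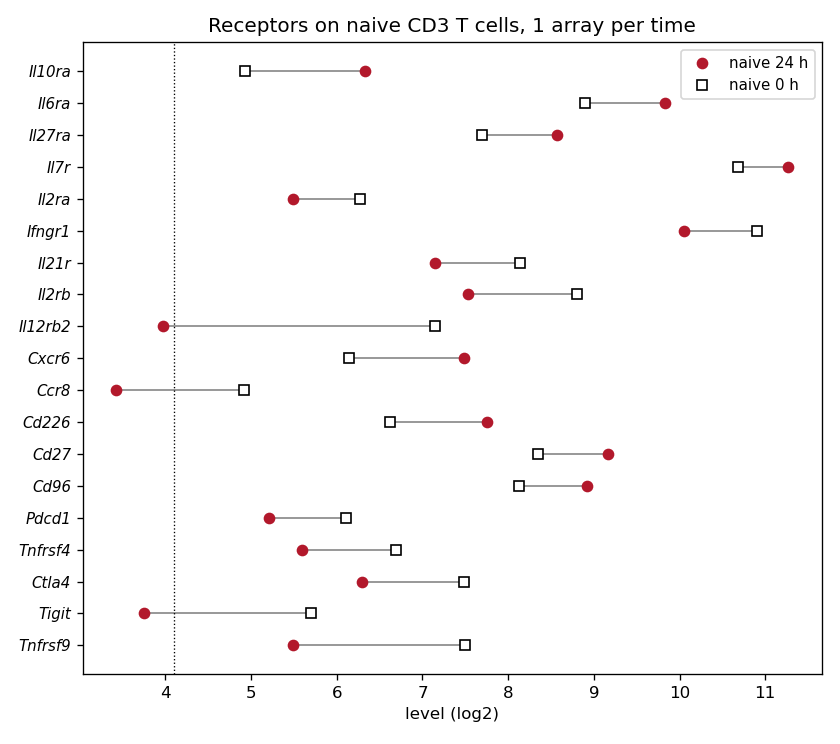
Level (log2, horizontal) of 19 receptor genes at 24 h (red circles) and at 0 h (open squares) in naive CD3 T cells, 1 array each, with the background level of 4.10 as a dotted line. Il12rb2, Tnfrsf9 and Tigit lie further left at 24 h, while Il10ra, Cxcr6 and Cd226 lie further right.

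For genes of regulatory T cells, the subset that restrains other T cells, the median was -0.55. At least 2-fold lower were 6 of 20 members, and 0 were that much higher. Tnfrsf9 (4-1BB), a costimulatory receptor, had 5.49 at 24 h and 7.5 at 0 h (-2.0), Lrrc32, which displays latent TGF-beta, differed by -1.51, and Ikzf2 (Helios) by -1.34. Foxp3, the transcription factor that defines the subset, had 6.89 at 24 h and 7.48 at 0 h (-0.60). Izumo1r, the folate receptor 4 of these cells, differed by 0.65 in the other direction. Among checkpoint receptors, Tigit had 3.75 at 24 h, under background, and 5.69 at 0 h (-1.94, or -1.59 with the 24 h level set to background), Ctla4 had 6.29 and 7.48 (-1.19), and Cd226, the activating receptor that shares ligands with Tigit, had 7.76 at 24 h and 6.62 at 0 h (1.14). In that list 4 of 18 members were lower and 1 higher by 2-fold or more, and several genes stand in both lists.

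The T cell receptor complex and its coreceptors stood higher by less than 2-fold. Of 23 members 18 lay above the median of all genes, with a list median of 0.48, but 0 were at least 2-fold apart. Lcp2 (SLP-76), an adaptor of receptor signalling, had 9.89 at 24 h and 8.91 at 0 h (0.98). Thy1, Prkcq (a protein kinase C of the immune synapse), Cd8a, Plcg1 and Cd8b1 had differences from 0.78 to 0.85, and Cd4 had 9.78 at 24 h and 9.09 at 0 h (0.69). Cd3e and Cd3g, invariant chains of the complex, differed by 0.46 and 0.51, whereas Cd28, the main costimulatory receptor, differed by -0.28 and Sh2d2a, an adaptor, by -0.39.

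Homing and naive state genes showed no common direction, with a median of 0.00 over 23 members. With the PLL 3 h array in place of naive 0 h the median was 0.23. Dapl1, a gene of resting T cells, had 9.14 at 24 h and 7.51 at 0 h (1.63, or 0.75 against the PLL 3 h array). It was the 1 member at least 2-fold apart. Ccr7, the receptor that guides naive T cells into lymph nodes, had 9.49 at 24 h and 9.95 at 0 h, and Lef1, a factor of naive and stem-like T cells, 10.97 and 10.63. In the list of cytokines and chemokines, Ltb, lymphotoxin beta, had 10.38 at 24 h and 9.21 at 0 h (1.17, or 0.57 against the PLL 3 h array). In the list of chemokine and lipid-mediator receptors, Cxcr6, a chemokine receptor, had 7.49 and 6.14 (1.34), and P2ry10, a lysophospholipid receptor, 8.25 and 9.74 (-1.49). Of its 19 filtered members 1 was higher and 2 were lower by 2-fold or more. Its median was 0.30, or 0.079 with the PLL 24 h array in place of naive 24 h. Bach2, a repressor of effector genes, differed by -0.72. Ezr, the ezrin that links microvilli to actin, had 9.56 at 24 h and 10.05 at 0 h (-0.50).

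Most of the largest rises came from genes with no common list. Ifi208, of the AIM2-like receptor family of interferon-inducible proteins, had 6.81 on the naive 24 h array and 4.25 on the naive 0 h array (2.56), the largest rise. Gstt2, a glutathione transferase, had 5.94 at 24 h and 3.71 at 0 h (2.23), or 1.84 with the 0 h level set to background, and was under background on all 3 arrays of 3 h and between 5.87 and 6.29 on the other arrays of 24 h. Sgsh, the lysosomal enzyme that removes sulfate from heparan sulfate, had 7.35 at 24 h and 5.30 at 0 h (2.05). Adcy7, an adenylyl cyclase, had 8.37 and 6.45 (1.92). Paqr7, a membrane progestin receptor, Slc25a45, a mitochondrial carrier, Hvcn1, a proton channel, Slc14a1, a urea transporter, and Tspan32, a tetraspanin, had differences of 1.81, 1.70, 1.69, 1.69 and 1.67. With the PLL 3 h array in place of naive 0 h, Ifi208, Sgsh and Adcy7 had 1.48, 1.46 and 1.26. Slc25a45, Hvcn1 and Slc14a1 then had 1.41, 1.46 and 1.41, and Paqr7 and Tspan32 fell under 2-fold at 0.94 and 0.77. Gstt2 was lower on the PLL 3 h array (3.52) than on the naive 0 h array. Abcg3, an ABC transporter, Dntt, which adds nucleotides to rearranging receptor genes, Map2k6, a kinase above p38, and the RNA gene Pla2g10os were under background at 0 h, with differences of at least 1.39, 0.84, 0.37 and 0.11. Syne1, which ties the nucleus to the cytoskeleton, differed by 1.80 in its brightest probe set but by 0.05 as the mean of its 59 probe sets.

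Of 25 filtered members of the type I interferon list 4 were higher and 1 was lower by 2-fold or more, and the median was 0.22. The shares over all genes were 1.76% higher and 1.51% lower. Ifit1bl1, of a family that binds foreign RNA, had 8.01 at 24 h and 6.11 at 0 h (1.90). Ifit2 had 6.74 at 24 h and 5.43 at 0 h (1.31), and Ifit3 had 5.66 at 24 h and 4.44 at 0 h (1.23). Oasl2, of the oligoadenylate synthetase family, was the lower member, with 3.09 at 24 h, under background, and 4.12 at 0 h, so that its difference of -1.04 comes to -0.026 with the 24 h level set to background. The classical markers Isg15 and Irf7 differed by 0.35 and -0.14. With the PLL 3 h array as baseline the median of the list was -0.14, and Ifit1bl1 and Ifit3 had 0.65 and 0.28. The interferon gamma induced GTPases had a median of -0.47, or -0.19 with the PLL 24 h array in place of naive 24 h, with 0 of 10 at least 2-fold apart, Irgm1 and Igtp being lowest at -0.82 and -0.78.

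In metabolism, lysosomal genes stood mostly above 0, fatty acid oxidation genes were mixed, and part of the hypoxia-responsive genes stood lower. In the lysosome list 29 of 36 members were above 0, against 7302 of all 13428 filtered genes. The list median was 0.30, with 3 genes past 2-fold on the higher side and 0 on the lower. Beside Sgsh these were the cathepsins Ctsa (7.23 at 24 h and 6.21 at 0 h) and Ctsd (9.04 and 8.04), proteases of the lysosome, and with each array centred both fell short of 2-fold at 0.93 and 0.91. In the fatty acid oxidation list 17 of 27 members were above 0 and 10 below it, and 15 lay above the median of all genes and 12 below. Its median was 0.32, but 0.029 with no filter and 0.056 with the PLL 3 h array in place of naive 0 h. The 2 members that reached 2-fold, both higher at 24 h, lay at the threshold and had 0.93 and 0.91 with each array centred. These were Acaa2, the mitochondrial thiolase of beta-oxidation (6.96 at 24 h and 5.93 at 0 h), and Cpt1a, the enzyme that commits fatty acids to mitochondrial entry (7.12 and 6.12). Acadm, the medium-chain dehydrogenase, had 8.19 at 24 h and 7.5 at 0 h (0.69, or 0.068 against the PLL 3 h array), while Hadha, Acadvl and Acadl, which act on long chains, differed by -0.30, -0.09 and -0.71. Fasn, the fatty acid synthase, had 6.87 at 24 h and 7.01 at 0 h (-0.15).

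In the hypoxia list 5 members were at least 2-fold lower and 1 was higher, of 18 filtered members, with a median of -0.30. P4ha1, a collagen prolyl hydroxylase, Ero1a, an oxidase of the endoplasmic reticulum, Ndrg1 and Ddit4, an inhibitor of mTORC1, differed by -1.41, -1.33, -1.25 and -1.17. Ero1a had -0.85 as the mean of its probe sets, and P4ha1 had -0.21 against the PLL 3 h array. Pdk1, a kinase that inhibits pyruvate dehydrogenase, went the other way with 8.29 at 24 h and 6.92 at 0 h (1.37, or 0.86 as the mean of its probe sets). The glucose transporter Slc2a1 differed by -0.95 and hexokinase Hk2 by -0.89, in a glycolysis list with a median of -0.12 and 0 of 21 at least 2-fold apart. Slc2a1 had -0.55 as the mean of its probe sets, and against the PLL 3 h array Slc2a1 had 0.06 and Hk2 -0.34. Abca1 and Abcg1, cholesterol exporters under LXR control, differed by -1.53 and -1.0. The level of Ddit4 was lower still on the PLL 3 h array, where the difference of the naive 24 h array from it was 0.33.

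Clock and glucocorticoid target genes differed gene by gene. Dbp, a clock output factor that binds the D-box, had 6.72 at 24 h and 5.32 at 0 h (1.40), and Per1, a clock repressor that glucocorticoids induce, had 6.95 and 8.41 (-1.47). Bhlhe40, a repressor in the clock, differed by -1.12 and Nr1d1, the REV-ERB alpha receptor, by 0.70. In the clock list 1 of 17 members was higher and 2 were lower by 2-fold or more, around a median of -0.10. Among all genes 1.76% were higher and 1.51% lower. The glucocorticoid target list had a median of -0.39 with 3 of 18 at least 2-fold lower, which were Per1, Dusp1 and Ddit4. Against the PLL 3 h array the median was of opposite sign, at 0.031, and Per1 had -0.35. Tsc22d3 (GILZ), a canonical target, had 5.73 at 24 h and 6.58 at 0 h (-0.85).

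In the cell cycle list 1 of 25 members was higher and 2 were lower by 2-fold or more, around a median of 0.05. Over all genes the shares were 1.76% and 1.51%, so counts this small say little about the list. Mki67 (3.90 at 24 h and 5.06 at 0 h) and Top2a (3.40 at 24 h and 4.62 at 0 h), markers of dividing cells, were under background at 24 h, with differences of -0.96 and -0.52 when that level is set to background. Ccnd3, a G1 cyclin, had 7.66 at 24 h and 6.66 at 0 h (1.0, or 0.91 with each array centred). Genes of RNA handling lay below the median of all genes more often than above it. Of the 28 Hnrnp and Srsf genes, which encode splicing and RNA-binding proteins, 24 lay below it, with Hnrnpa3 at -1.17 and Hnrnpdl at -1.0. Of the 59 cytosolic ribosomal protein genes 51 lay below it, with a median of -0.18. The host genes of small nucleolar RNAs had a median of -0.35, with Snhg5 and Snhg1 at -1.02 and -1.01. The 286 Zfp genes, zinc finger factors mostly of the KRAB type, had a median of 0.17, and 182 of them lay above the median of all genes.

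**Figure D4:**
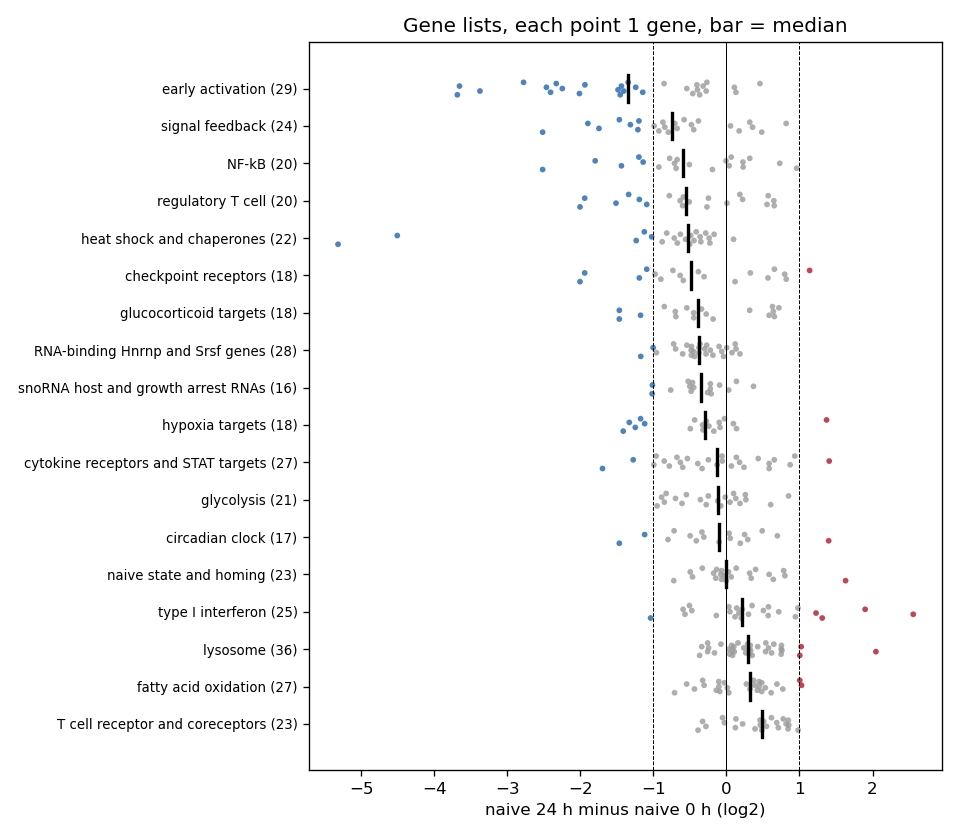
Difference (naive 24 h minus naive 0 h, log2, horizontal) of each filtered member of 18 gene lists (rows, number of members in brackets), with a black bar at the median, red for genes at least 2-fold higher, blue for genes at least 2-fold lower and dashed lines at 2-fold. Early activation has the lowest median at -1.34 and the T cell receptor list the highest at 0.48.

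Differences with time in the cells exposed to PLL alone or to ConA alone, which share no array with this comparison, were set beside it. The ConA+PLL pair shares none either and was not compared gene by gene. Of 13428 filtered genes it had 786 at least 2-fold higher at 24 h than at 3 h and 216 lower. Between PLL 24 h and PLL 3 h, 170 genes were higher by 2-fold or more (1.27%) and 105 lower (0.782%), and between ConA 24 h and ConA 3 h, 406 were higher (3.02%) and 205 lower (1.53%). Genes at least 2-fold higher both in naive and in PLL cells numbered 68, which is 28.8% of the naive list and 40% of the PLL list, and 60 were lower in both, 29.6% and 57.1% of the lists. With ConA the shared genes were 151 higher, 64% and 37.2% of the lists, and 103 lower, 50.7% and 50.2%. In neither case was a gene 2-fold apart in opposite directions. Across the 13428 genes, which are not independent replicates, Pearson's r was 0.56 with the PLL difference and 0.634 with the ConA difference, and all arrays may have been normalized together. The early array of these pairs is 3 h and not 0 h.

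**Figure D5:**
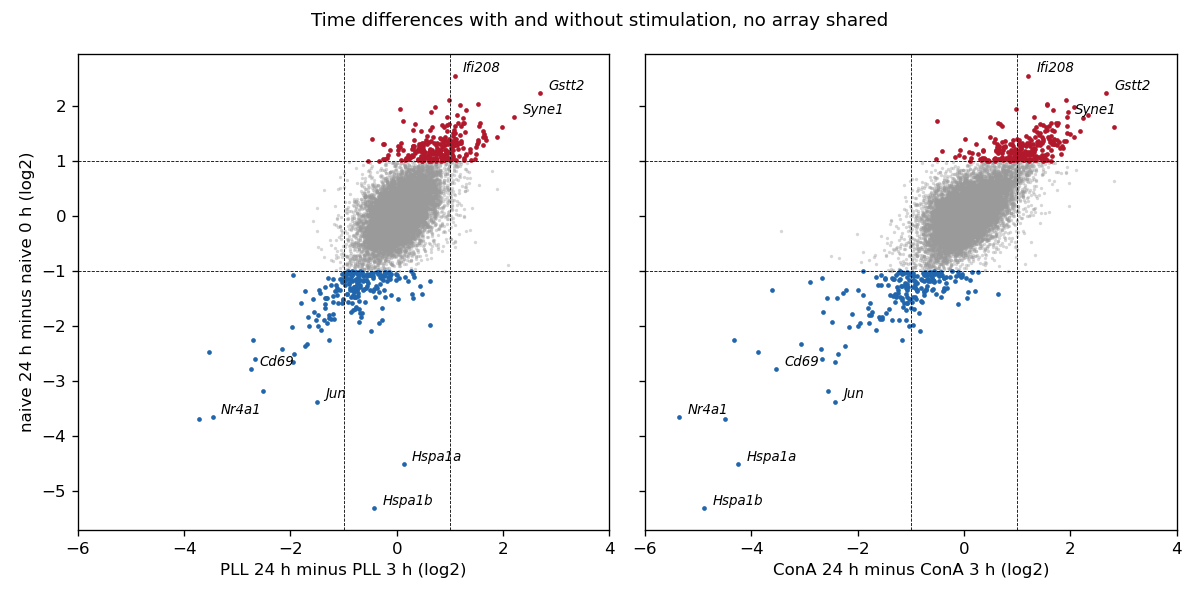
Naive 24 h minus naive 0 h (log2, vertical) against PLL 24 h minus PLL 3 h (left) and ConA 24 h minus ConA 3 h (right; log2, horizontal) for the 13428 filtered genes, with genes at least 2-fold higher in red and lower in blue in the naive comparison. Nr4a1 is low on all 3 axes, while Hspa1a and Hspa1b are near 0 for PLL at 0.13 and -0.42.

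In the naive, PLL and ConA contrasts alike, 56 genes were at least 2-fold higher, 23.7% of the naive list, and 51 at least 2-fold lower, 25.1% of it. Cd7, an immunoglobulin family receptor of T cells, had 9.02 at 24 h and 7.77 at 0 h in naive cells (1.25), with 1.02 for PLL and 1.87 for ConA. Traf5, an adaptor of TNF receptors, differed by 1.25, 1.25 and 1.80, and Mr1, which presents vitamin metabolites to MAIT cells, by 1.12, 1.30 and 1.56, in naive, PLL and ConA cells. These 3 genes were picked from the shared list after their values were seen. Nr4a1, Nr4a3, Cd69, Odc1, Il12rb2, Irf4 and Gadd45b were on the lower side in all 3. Hspa1b was at least 2-fold lower in the naive and ConA contrasts, at -5.32 and -4.88, and not in the PLL contrast, at -0.42.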

How the data were processed

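RNA of mouse CD3 T cells was hybridised as labelled sense-strand cDNA to Affymetrix Mouse Gene 2.0 ST arrays, 1 array per group. The authors normalized the arrays by RMA and deposited 1 value per probe set and array, read here as log2 because RMA gives that scale. Log base, software version, genome build and the set of arrays normalized together: not given in the sources used here. No scaling was added.

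Of 41345 probe sets, 23521 had 1 gene symbol in the platform annotation, 1820 had several and 16004 had none. Entrez identifiers matched 23328 of the 23521 to RefSeq (GRCm38.p6), which changed 0 symbols. The probe set with the highest mean was kept for each of 22180 genes (1082 had several). Genes were kept where the highest of the 8 levels reached the table median (3.62), which 13428 did, and 10900 reached the background level of 4.10. A gene was counted when its absolute difference was at least 1. With 1 array per group there was no test, and the number of arrays limits the precision.

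The comparison, the gene lists and the rule for named genes were chosen with earlier results of these data known. Named were the 15 largest differences in each direction among genes reaching background, up to 6 members of each list with the largest differences, list members whose sign differs from the list's median, and Acadm, Acadvl, Hadha, Fasn, Notch1, Cd3e, Myc and Ezr; a few further genes, such as Cd7, Traf5, Mr1, Foxp3, Ccr7, Lef1, Il7r and Ighm, were added after their values were seen. Alternatives were other filters, quantile normalization, median centring, the mean of probe sets, a 1.5-fold threshold, and the PLL 24 h or PLL 3 h array in place of a naive array. The script was checked on simulated data of 13428 genes, where it called 50 of 50 genes moved by 1.5 in each direction and 0 unchanged genes. A shift of 1.5 lies past the cut of 1, so this checks the code and not the rate of false calls on real arrays. Analyses ran in Python 3.11.15 with pandas 2.3.3 and NumPy 2.4.6, and figures in matplotlib 3.10.9.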

Additional observations from a re-analysis of the deposited data

How the results depend on the processing

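With 1 array a side, no replicate could be left out, and no paired analysis was possible because the labels give no replicate numbers. The counts of 236 higher and 203 lower genes became 1224 and 793 at a 1.5-fold threshold, and 121 and 112 with the PLL 3 h array in place of naive 0 h. With that array as baseline the median of the early activation list was -0.69, that of the heat shock and chaperone list -0.30, signal feedback -0.20, checkpoint receptors -0.22, fatty acid oxidation 0.056, glucocorticoid targets 0.031 and type I interferon -0.14, and the differences of Hspa1a and Ddit4 were 0.26 and 0.33. These medians and differences were closer to 0 or of opposite sign. Other medians moved away from 0 with that baseline, to 0.23 for naive state and homing and to 0.44 for B cell markers, from 0.00 and 0.20. The cause was not tested. With no filter the fatty acid oxidation median was 0.029. The mean over heat shock members was -0.95 because the Hspa1 pair weighs on it. Of the list medians under all alternatives, 383 stayed within 0.194 of their value, 29 moved further and 2 reversed, and of the named genes 1067 stayed, 301 moved further and 2 reversed. Levels under the background of 4.10 carry only a bound on the difference.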
